A study of Mus musculus with 49 samples.

Results

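The proteasome and chaperone genes described here were all rows of the deposited table whose symbol belonged to the proteasome subunits and their partners (Psma to Psmg with a number), the heat shock proteins (Hsp), the J proteins (Dnaj) or the chaperonin subunits Cct2 to Cct8. They were 99 of the 9020 genes listed, of which 44 fell in the proteasome group, 18 in the heat shock group, 30 in the Dnaj group and 7 in the Cct group. Expression was measured by patch RNA sequencing (Patchseq) in 49 single neurons of the primary somatosensory cortex of wild-type (WT) CD1 mice at P7. The neurons had been labelled at E13.5 with FlashTag (FT), a dye injected into the embryonic ventricle that marks cells dividing at the ventricle wall, so that all of them left the ventricular zone at about the same time. All cells carried the same genotype, strain, age and label, and no other treatment was named. They are 1 condition, the labels name no animal, and the cells were therefore handled as 1 sample, with no test between cells.

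The proteasome degrades proteins tagged with ubiquitin. Its barrel-shaped core, the 20S particle, holds rings of alpha (Psma) and beta (Psmb) subunits, and the 19S regulatory particle on its ends recognizes, unfolds and feeds in the substrate. Chaperones keep proteins folded before that point: Hsp70 proteins bind exposed stretches with the help of J proteins, which start their ATPase cycle, Hsp90 proteins finish the folding of kinases and receptors, and the Cct ring (TRiC) folds actin and tubulin. In neurons these systems serve axons and synapses as well as the cell body, and some J proteins work on synaptic vesicles.

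Part of the chaperone genes is known to be switched on by heat shock factors, which bind repeats of the letters GAA in alternating orientation. The promoters of the members that hold such a motif are therefore shown first. RefSeq promoter windows on GRCm38.p6, from 250 bases before to 50 bases after an annotated start, were found for 81 of the 99 members, and both strands were searched for a heat shock element of 3 units (TTC, any 2 bases, GAA, any 2 bases, TTC). It was present in the windows of 4 members (4.94%), namely Hspd1, Hspe1, Hsph1 and Dnajb6, against 179 of 27025 genes with a window (0.662%) and 42 of 6837 listed genes (0.614%). By group, 3 of 12 heat shock windows, 1 of 25 Dnaj windows, 0 of 38 proteasome windows and 0 of 6 Cct windows held it. A match describes the letters only and is not a measured binding site. Hspe1 and Hspd1 encode the mitochondrial chaperonin pair Hsp10 and Hsp60 and lie head to head, so that their windows (chr1:55087898-55088197, plus strand, and chr1:55087883-55088182, minus strand) share 285 bases. The same matched stretch is therefore counted for both genes in the counts above. The window of Hspe1 stands for both. It holds 2 overlapping matches. In Hsph1, which encodes a nucleotide exchange factor of Hsp70 (chr5:149636287-149636586, minus strand), the match lies 36 bases after the annotated start used here and 15 bases after another annotated start. In Dnajb6, a J protein that holds back aggregation (chr5:29735648-29735947, plus strand), it lies 46 bases before the annotated start used here and 127 bases before another. Capitals mark the matches.
Hspe1: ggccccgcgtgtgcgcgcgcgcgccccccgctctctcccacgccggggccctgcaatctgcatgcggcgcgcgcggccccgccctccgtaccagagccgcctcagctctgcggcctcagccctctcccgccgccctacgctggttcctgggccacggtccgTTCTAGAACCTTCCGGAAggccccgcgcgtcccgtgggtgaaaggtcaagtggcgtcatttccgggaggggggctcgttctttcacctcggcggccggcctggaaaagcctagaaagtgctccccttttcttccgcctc
Hsph1: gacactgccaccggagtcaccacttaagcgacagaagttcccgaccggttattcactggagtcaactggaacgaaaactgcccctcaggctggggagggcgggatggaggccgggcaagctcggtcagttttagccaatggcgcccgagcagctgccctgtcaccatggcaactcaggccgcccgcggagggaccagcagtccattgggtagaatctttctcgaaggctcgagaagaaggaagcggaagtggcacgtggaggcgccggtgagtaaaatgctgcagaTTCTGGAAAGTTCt
Dnajb6: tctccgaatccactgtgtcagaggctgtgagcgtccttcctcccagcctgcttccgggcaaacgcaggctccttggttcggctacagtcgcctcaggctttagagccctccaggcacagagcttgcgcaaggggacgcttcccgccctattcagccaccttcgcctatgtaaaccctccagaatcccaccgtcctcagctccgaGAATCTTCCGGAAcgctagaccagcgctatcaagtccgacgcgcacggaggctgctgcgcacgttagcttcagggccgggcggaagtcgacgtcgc

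The deposited values are RPM, that is reads scaled to the same total in each cell. The recovered depth lay between 209850 and 35342325 reads, and the median cell had 1240101, so that 1 read stood for 4.77 RPM in the shallowest and 0.0283 RPM in the deepest cell. The depth differed between the 5 library pools of 12, 9, 9, 9 and 10 cells, from a median of 9870201 reads in pool 1 to 814366 in pool 5. All 49 cells had at least 2 of the 6 neuron markers (Snap25, Syt1, Stmn2, Map2, Tubb3 and Rbfox3) at 100 RPM or more, with a summed level of 1293 to 15983 RPM. At the same limit, at least 2 markers were present in 21 cells for excitatory neurons, in 6 cells for inhibitory neurons, in 5 for astrocytes, in 6 for the oligodendrocyte lineage, in 8 for microglia and in 31 for red blood cells. In cell IL01 of pool 3, 68.8% of the reads were hemoglobin reads. The table lists only genes with 2 or more cells at 100 RPM, and genes below that level are not analysed here.

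The proteasome and Cct genes, and less so the heat shock genes, were high among the listed genes, while the Dnaj genes lay near the share of all listed genes. The median over the 49 cells was at least 10 RPM for 68 of the 99 members (68.7%), where the same held for 38.2% of all listed genes, and at least 100 RPM for 44 members, where the same held for 13.7%. A median of at least 1 RPM was reached by 86 members, against 66.2% of the listed genes, and 10 RPM or more in at least 40 cells by 42 members, against 11.5%. A read was present in every cell for 27 members against 8.10% of the listed genes. The median of the members' medians was 59.0 RPM, against 3.87 RPM for all listed genes. All 7 Cct genes, 35 of 44 proteasome genes, 12 of 18 heat shock genes and 14 of 30 Dnaj genes had a median of at least 10 RPM. A median of at least 100 RPM was reached by all 7 Cct genes, 26 proteasome genes (59.1%), 7 heat shock genes (38.9%) and 4 Dnaj genes (13.3%), the last against 13.7% of all listed genes. Together, the members made up 1.96% of reads in the median cell (0.275% to 2.84%). Of the RPM on members, the proteasome group held 52.2% in the median cell, the heat shock group 18.9%, the Dnaj group 15.1% and the Cct group 12.7%.

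**Figure D1:**
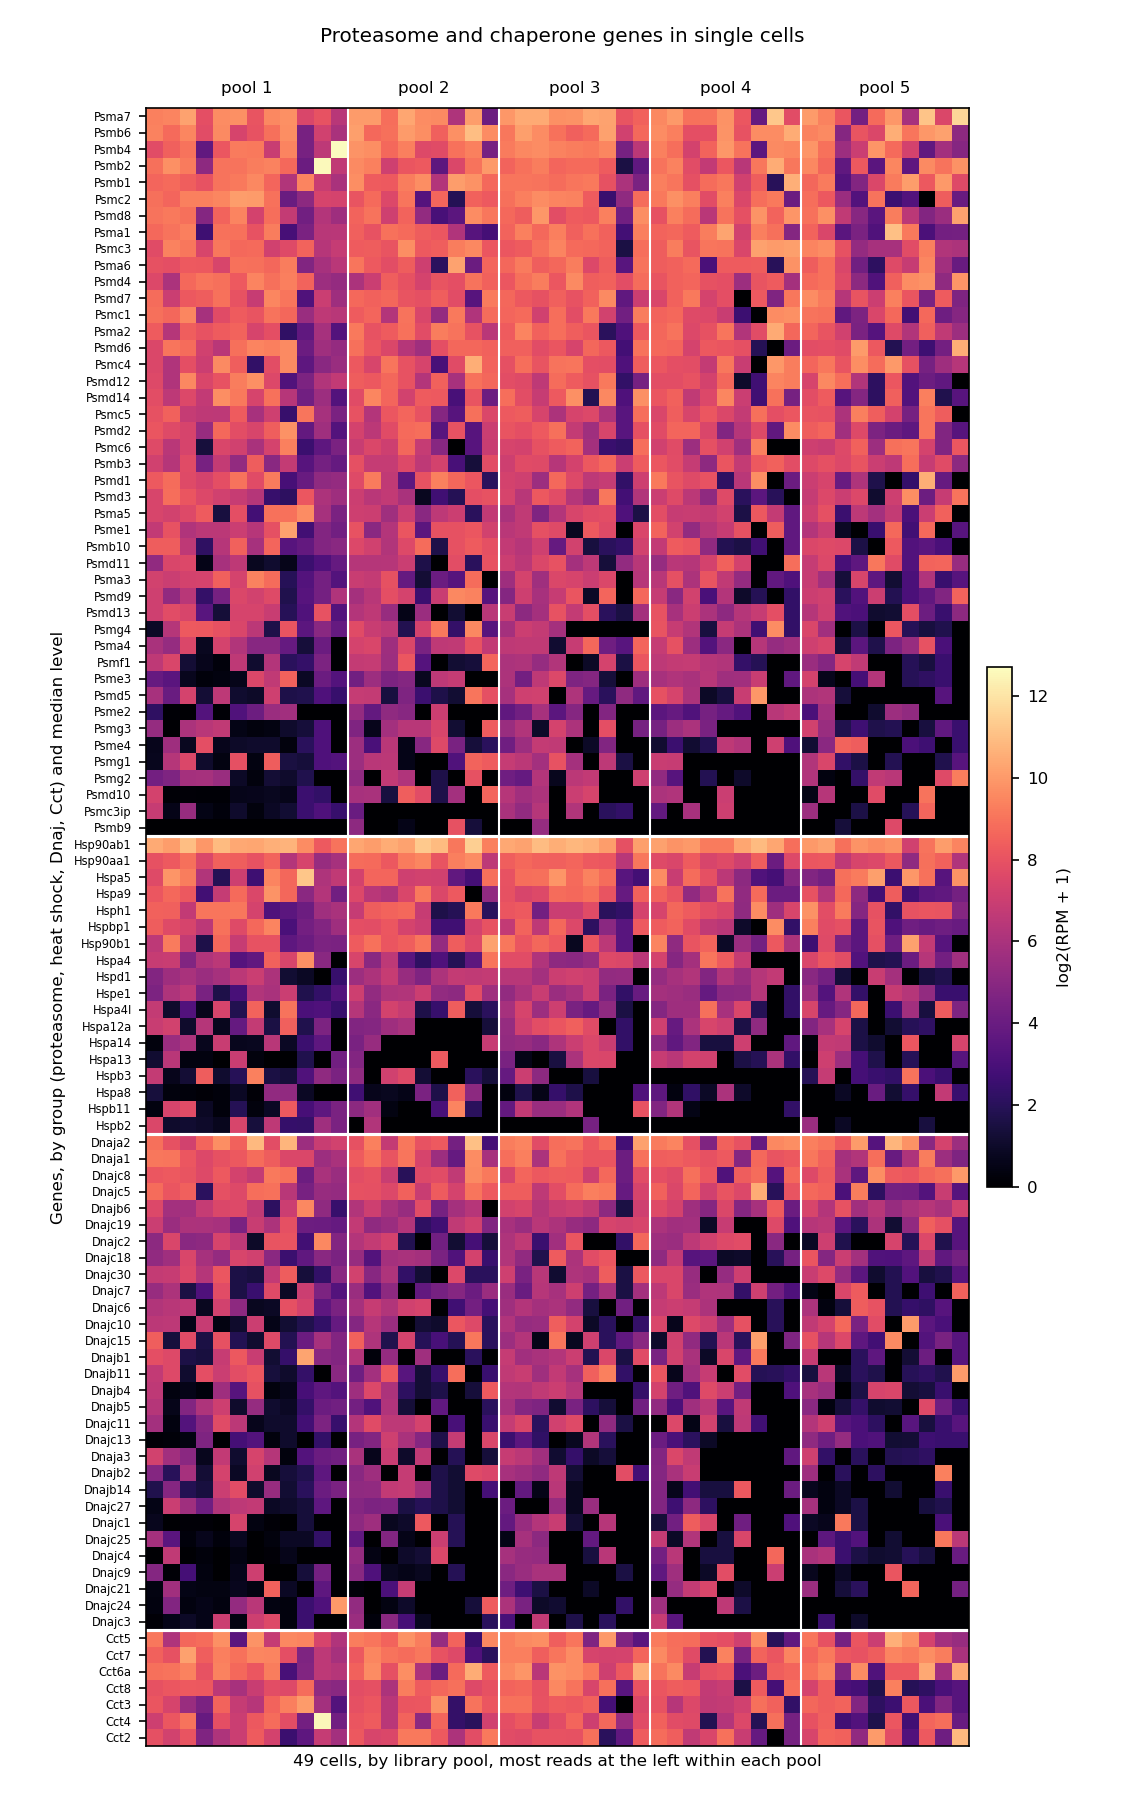
Level of each of the 99 members (rows, by group and median) in each of the 49 cells (columns, by library pool, most reads at the left), as log2(RPM + 1) in colour. Hsp90ab1 was bright in every cell, and Psmb2, Psmb4 and Cct4 each had an isolated bright cell in pool 1. Genes at the bottom of the proteasome, heat shock and Dnaj groups were at 0 in many cells and bright in a few. Every listed gene reached 100 RPM in at least 2 cells, so some bright cells follow from the listing.

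Levels of different genes in RPM were taken as they are because the kit reads the 3′ ends of transcripts. The median RPM followed transcript length weakly over the 8835 genes matched to the annotation (Spearman rho across genes −0.09) and over the 99 members (rho −0.13). Dividing by transcript length changed the order of the members little (rho 0.964 with the order in RPM), but moved the leading genes. Per kilobase, the median was 696 RPM for Psmb6, 653 for Psma7, 510 for Psmb2, 453 for Hsp90ab1 and 412 for Psmb4.

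Of the 14 subunits of the 20S core, 12 are listed, all 7 of the alpha and 5 of the beta ring, while Psmb5 and Psmb7, which carry catalytic sites, are not analysed here. All 12 had a median of at least 10 RPM, and 10 of them a median of at least 100 RPM, against 38.2% and 13.7% of all listed genes. In the alpha ring, Psma7 (chr2:180036374-180042433, GENCODE M21 on GRCm38) ranged from 13.6 to 3178 RPM over the cells with a median of 756 RPM. Psma7 was the highest alpha subunit in 32 of 49 cells. The medians of the other alpha subunits were 355 RPM for Psma1, 314 for Psma6, 260 for Psma2, 109 for Psma5, 70.3 for Psma3 and 49.4 for Psma4, so that transcripts for proteins present in equal number in the ring spanned more than an order of magnitude. For Psma5, 67.6% of the last 500 bases are shared with another annotated gene, and reads there can be split between copies or left out.

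In the beta ring, Psmb6 (chr11:70525367-70527858), which carries the caspase-like activity, had a median of 556 RPM (21.03 to 2001 RPM). Psmb4 followed with a median of 488 RPM (10.9 to 6669 RPM) and Psmb2 with 438 RPM (1.98 to 6167 RPM). Psmb1 had a median of 428 RPM and Psmb3 of 141 RPM. These beta subunits were read in every cell, and no single one led throughout: Psmb6 was the highest in 20 cells, Psmb4 in 12, Psmb2 and Psmb1 in 8 each and Psmb3 in 1. The summed beta level exceeded the summed alpha level in 24 of 49 cells, with a median ratio of alpha to beta of 1.04 (0.0437 to 2.74).

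A few cells stood far apart for a single subunit. Cell IL12 of pool 1 held 6669 RPM of Psmb4 (1503 of its 225363 reads), where the second highest cell held 978 RPM. Cell IL02 of pool 1 held 6167 RPM of Psmb2 (1592 of its 258130 reads) against 1438 RPM in the second highest cell, and in the same cell Cct4 stood at 5923 RPM (1529 reads) against 510 RPM in the second highest. Both cells are shallow and the kit carries no molecular identifiers, so these reads cannot be counted as separate molecules. The ratio of alpha to beta was lowest in these 2 cells, at 0.0437 and 0.0841, and the ratio of 20S to 19S transcripts highest, at 8.42 and 5.57.

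The 19S particle had transcripts at a similar level. All 17 of its listed subunits had a median of at least 10 RPM, and 15 of at least 100 RPM, against 38.2% and 13.7% of all listed genes. Among the 6 ATPases of the base, which unfold the substrate, Psmc2 had the highest median at 383 RPM (0 to 1106 RPM). It was followed by Psmc3 with 340 RPM, Psmc1 with 265, Psmc4 with 239, Psmc5 with 182 and Psmc6 with 142. Psmc2 was the highest ATPase in 18 cells and Psmc3 in 14. Psmc2 also differed between library pools, with a median of 29.7 RPM in pool 5 against 564 RPM in pool 4. The pools differ in depth and other ways, and their part in this was not tested.

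Among the subunits without ATPase activity, the lid subunit Psmd8 had the highest median, 375 RPM (6.64 to 1158 RPM). The ubiquitin receptor Psmd4 had a median of 312 RPM and was at 10 RPM or more in 48 cells. The lid subunits Psmd7, Psmd6 and Psmd12 had medians of 275, 243 and 223 RPM. Psmd14, the lid enzyme that removes ubiquitin from the substrate, had a median of 190 RPM (2.35 to 869 RPM). The lowest were Psmd11 with 80.0 RPM and Psmd13 with 56.7 RPM. The median ratio of summed 20S to summed 19S transcripts was 0.940 (0.345 to 8.42), and the 20S sum was the larger one in 19 of 49 cells.

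Factors that assemble or switch the proteasome were mostly lower than its subunits. Of the 7 assembly chaperones, 2 had a median of at least 10 RPM (28.6%, against 38.2% of all listed genes). These were Psmd9 with 60.7 RPM and Psmg4 with 56.1 RPM. Psmd5, Psmg3, Psmg1, Psmg2 and Psmd10 had medians of 9.41, 5.25, 2.60, 2.43 and 0.532 RPM, and each exceeded 300 RPM in its highest cell. Every listed gene reached 100 RPM in at least 2 cells, so high cells beside a low median follow from the listing. Among the activators and the inhibitor, Psme1 (PA28 alpha) had a median of 102 RPM, its partner Psme2 (PA28 beta) of 8.30 RPM, the nuclear activator Psme3 (PA28 gamma) of 17.96 RPM, Psme4 (PA200) of 4.77 RPM and the inhibitor Psmf1 (PI31) of 23.2 RPM. Psme1 exceeded Psme2 in 42 of 49 cells. All of the last 500 bases of Psme2 are shared with Psme2b, so reads of Psme2 can be missed. Psmc3ip matches the name pattern but encodes a meiotic recombination factor, and its median was 0.237 RPM.

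**Figure D2:**
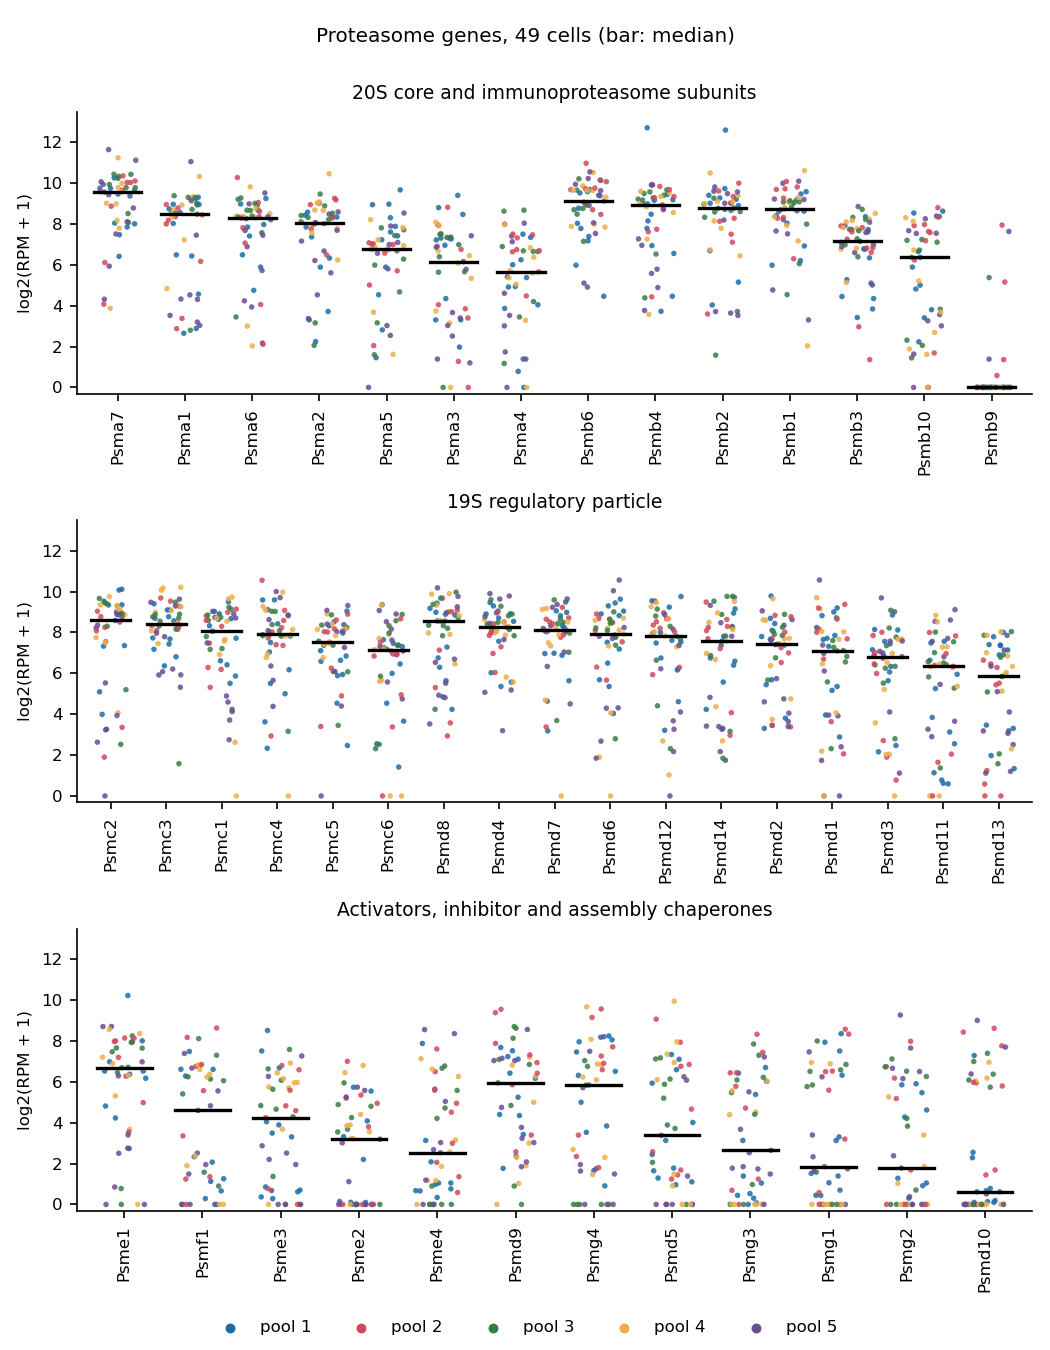
Each point is 1 cell, coloured by library pool, and the vertical axis is log2(RPM + 1) of the gene named below; bars mark the median over 49 cells. Subunits of the 20S and 19S particles lay mostly between 4 and 10 on this scale, the assembly chaperones and activators spread down to 0, and Psmb9 was above 0 in 7 cells.

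The immunoproteasome subunits replace catalytic subunits of the core in cells of the immune system and after interferon. Psmb10, which takes the place of Psmb7, had a median of 81.2 RPM (0 to 443 RPM) and was at 10 RPM or more in 34 cells. Psmb9 (chr17:34181987-34187764), which takes the place of Psmb6, was at 0 in all but 7 cells, and Psmb6 exceeded it in 49 of 49 cells. Psmb9 stood at 245 RPM in cell IL05 of pool 2 (180 reads), at 197 RPM in cell IL05 of pool 5 (152 reads), at 40.4 RPM in cell IL08 of pool 3 (84 reads) and at 34.6 RPM in cell IL03 of pool 2 (430 reads). The other cells with Psmb9 had 1 or 2 reads.

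The cells with Psmb9 at 10 RPM or more also carried microglial transcripts. The 4 microglial markers listed of 6 (C1qa, C1qb, C1qc and Csf1r) summed to 424, 3210, 2221 and 814 RPM in these 4 cells, in the order above, and to 4.47 to 8.06 RPM in the other cells with Psmb9. Over all cells the sum ranged from 0 to 3210 RPM with a median of 5.84 RPM, and 9 of 49 cells reached 100 RPM. The other 5 cells at 100 RPM or more of the microglial sum, between 381 and 1005 RPM, were at 0 for Psmb9, so that microglial markers were also present without it. The 4 cells with Psmb9 at 10 RPM or more held 1460 to 5058 RPM of the neuron markers. Their Psmb10 level was 249, 304, 137 and 189 RPM, which lay inside the range of the cells without Psmb9. The part of microglial RNA in the level of Psmb9 was not tested.

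**Figure D3:**
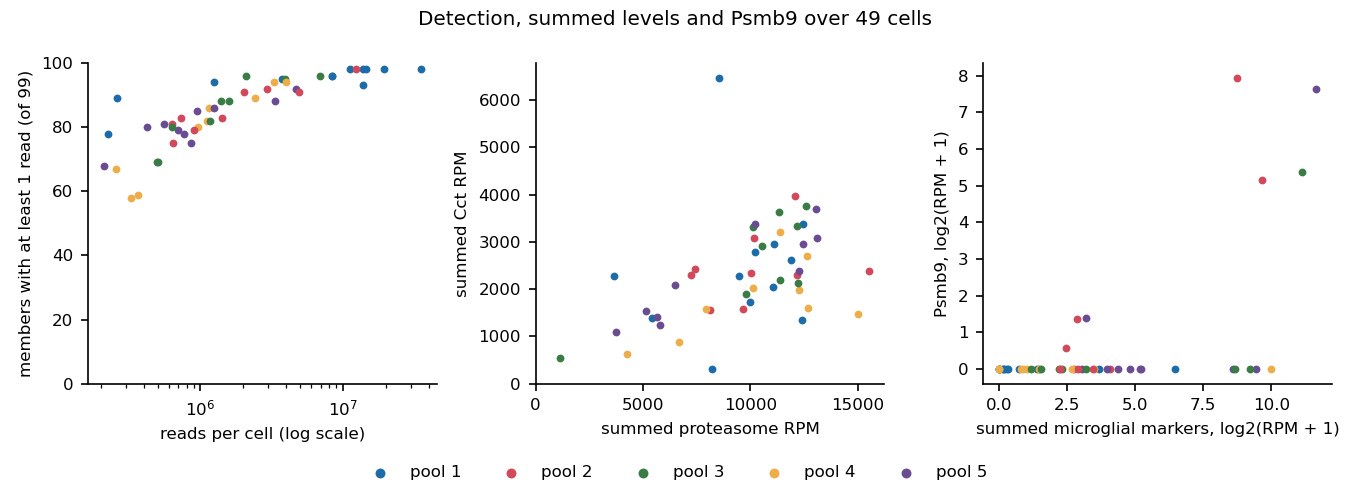
Each point is 1 cell, coloured by library pool. Left, the number of members with at least 1 read against reads per cell (log axis); middle, summed Cct RPM against summed proteasome RPM; right, Psmb9 against the summed microglial markers, both as log2(RPM + 1), where the 4 highest Psmb9 cells all lie above 8 on the horizontal axis.

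Hsp90ab1 led the chaperones, while the other Hsp90 genes had lower medians than several Cct genes. Hsp90ab1 (chr17:45567775-45573271), the constitutive cytosolic Hsp90, had the highest median of all members at 1143 RPM, and with a lowest value of 142 RPM and a highest of 2773 RPM it was the only member at 100 RPM or more in all 49 cells. It made up 38.6% of the heat shock RPM in the median cell and was the highest heat shock gene in 42 cells. Hsp90aa1, the heat-inducible cytosolic form, had a median of 291 RPM (15.4 to 814 RPM). Hsp90ab1 exceeded Hsp90aa1 in 48 of 49 cells, with a median ratio of 4.22, and the exception was cell IL05 of pool 2, where the ratio was 0.863. This cell stood apart from the others: it had the highest mitochondrial share (9.81% of reads) and the highest sum of astrocyte markers (1949 RPM), beside 424 RPM of microglial markers and 3996 RPM of neuron markers. The part of these in its chaperone levels was not tested. Hsp90b1, the form in the endoplasmic reticulum (ER), had a median of 116 RPM (0 to 1233 RPM).

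Among Hsp70 genes, Hspa5 and Hspa9 had the highest medians. Hspa5 (BiP), the Hsp70 of the ER, had a median of 205 RPM and ran from 2.76 to 2373 RPM, with 32 cells at 100 RPM or more. Hspa9 (mortalin), which pulls proteins into mitochondria, had a median of 179 RPM (0 to 935 RPM). Hspa13, the other Hsp70 member of the ER, had a median of 1.88 RPM and no read in 19 cells. The cytosolic relatives Hspa12a and Hspa14 had medians of 14.1 and 4.85 RPM. The stress-inducible Hspa1a and Hspa1b and the small heat shock gene Hspb1 are not analysed here.

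Hspa8 (chr9:40800984-40810087), the constitutive cytosolic Hsp70 that is usually abundant in brain, was listed near 0. It had a read in 36 cells, a median of 0.797 RPM and a level of 10 RPM or more in 9 cells, of which cell IL05 of pool 2 held 369 RPM and the second highest 104 RPM. The first of these is the cell with the highest mitochondrial share and astrocyte marker sum named above. Of the last 500 bases of its transcript, where a 3′ kit places its reads, 99.8% are shared at 98% identity or more with 4 other annotated genes (Gm15459, Gm26825, Gm6210 and Gm8355). Of the other members, Psme2, Hspe1, Psma5 and Psmd1 also share at least 50% of that stretch, which makes 5 of 99 members (5.05%) against 126 of 8835 listed genes (1.43%). Over those 126 genes the median level was 32.3 RPM, against 3.81 RPM for the other 8709, and 30 of the 126 had a median of at least 100 RPM. These are different genes whose level without sharing is not known, so the comparison cannot show whether reads are lost. The authors' handling of reads that map to several genes is not given in the sources used here, and its part in the low level of Hspa8 was not tested. The ends of 7 members (Cct8, Dnaja1, Dnajc19, Hspb2, Psmc3, Psmc3ip and Psme1) overlap a gene on the opposite strand, and whether strand was used in counting is not given, so reads of such a pair may not be separable.

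The genes that assist Hsp70 were present at intermediate levels. Hsph1 had a median of 169 RPM, ranged from 2.21 to 897 RPM and was read in every cell. Its relatives Hspa4 and Hspa4l had medians of 56.0 and 27.3 RPM, and Hspbp1, another nucleotide exchange factor, of 156 RPM. The mitochondrial chaperonin genes Hspd1 and Hspe1, which share the promoter shown above, had close medians of 49.1 RPM (0 to 141) and 37.9 RPM (0 to 225). Both were at 10 RPM or more in 31 cells, and Hspd1 was the higher of the pair in 25 of 49 cells. Across cells their levels were weakly related (Spearman rho 0.270 over 49 cells that differ in depth), with rho from −0.40 in pool 2 to 0.617 in pool 3. Hspd1 had a median of 2.08 RPM in pool 5 and of 83.6 RPM in pool 3. Hspb3 and Hspb2, small heat shock proteins known from muscle, had medians of 1.597 and 0 RPM, and Hspb11, which by function belongs to intraflagellar transport, of 0.343 RPM.

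**Figure D4:**
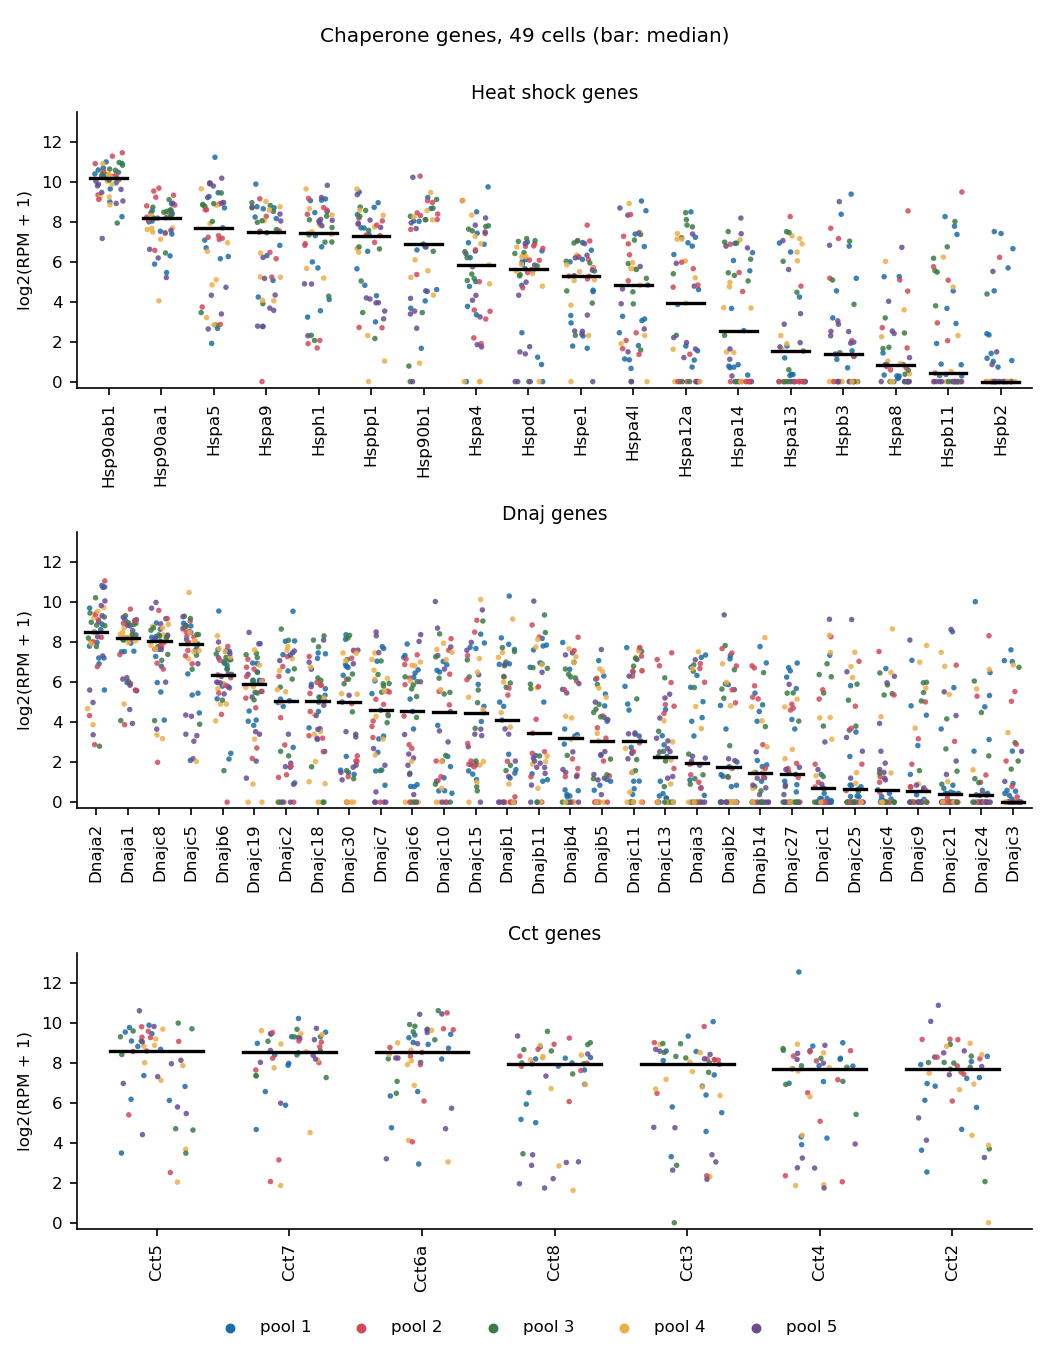
Each point is 1 cell, coloured by library pool, with log2(RPM + 1) on the vertical axis; bars mark the median over 49 cells. Hsp90ab1 lay within a narrow band, Hspa8 near 0 in most cells, and the Dnaj genes formed a gradient from Dnaja2 (median 358 RPM) to Dnajc3 (median 0). The medians of the Cct genes lay close together, while their cells spread widely, and Cct4 had 1 cell far above the others.

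J proteins formed a gradient in which 4 genes stood above the rest. Dnaja2 and Dnaja1, the general cytosolic partners of Hsp70, had medians of 358 RPM (5.95 to 2133 RPM) and 290 RPM (13.6 to 802 RPM). Dnajc8, a nuclear J protein tied to splicing, had a median of 265 RPM (2.98 to 1010 RPM). Dnajc5, the cysteine string protein of synaptic vesicles, had a median of 241 RPM (3.09 to 1428 RPM). These 4 genes were read in every cell, and Dnaja2 was the highest Dnaj gene in 21 cells. Dnajb6 followed with a median of 81.3 RPM, and Dnajc19, part of the motor that imports proteins into mitochondria, with 59.0 RPM. A median of at least 10 RPM was reached by 10 of 20 DnajC genes (50%) and 2 of 7 DnajB genes (28.6%). It was also reached by 2 of 3 DnajA genes, against 38.2% of all listed genes.

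The members that varied most between cells depended on the measure of spread. The ratio of the 90th percentile to the median, over members with a median of at least 10 RPM, was highest for Dnajc15, a J protein of the inner mitochondrial membrane, at 16.1 (median 21.2 RPM, highest cell 1120 RPM). It was 12.5 for Hspa12a, 12.3 for Dnajb1, 11.7 for Hspa4l, 10.04 for the ER disulfide reductase Dnajc10, 7.55 for Dnajc7, 6.96 for the ribosome-associated Dnajc2, 6.85 for auxilin (Dnajc6), which strips clathrin from vesicles, 6.82 for Psmf1 and 6.25 for Psme3. The medians of these 10 genes lay between 14.1 and 32.6 RPM, so few reads decide their values in shallow cells. By the coefficient of variation over the same members, Cct4 (2.68), Dnajb1 (2.21), Dnajc10 (1.84) and Dnajc15 (1.83) led, followed by Psmb4 (1.70) and Psmb2 (1.605).

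Genes known to respond to heat varied between cells and were loosely related to each other. Dnajb1, the heat-inducible partner of Hsp70, had a median of 16.2 RPM, was without a read in 10 cells and reached 1262 RPM in cell IL09 of pool 1. Its median was 76.0 RPM in pool 3 and 0.205 RPM in pool 2. It was at 100 RPM or more in 14 cells and Hsph1 in 33, with both in 12 cells. Across cells, Spearman's rho was 0.242 between Dnajb1 and Hsph1, 0.137 between Dnajb1 and Hsp90aa1 and 0.234 between Hsph1 and Hsp90aa1. Hsp90aa1 went with its constitutive counterpart Hsp90ab1 at a rho of 0.533, above 0 in 5 of 5 pools but only 0.0333 in pool 4. The rho of Hsph1 and Hsp90aa1 was also above 0 in 5 of 5 pools. Slices had been kept in a bath before collection, and what the handling adds to these levels cannot be told apart from the state of the tissue, since no other handling was used.

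Hspa5 and Hsp90b1, the main chaperones of the ER, did not always reach high levels in the same cells. Hspa5 was at 100 RPM or more in 32 cells, Hsp90b1 in 27 and both in 21. Their rho over cells was 0.264, and in cell IL09 of pool 1, which held the highest Hspa5 level of 2373 RPM, Hsp90b1 stood at 15.4 RPM. The astrocyte markers summed to 1781 RPM in that cell, the second highest value of all cells, and their part in its levels was not tested. Of the 8 members that work in the ER, 3 had a median of at least 10 RPM (37.5%, against 38.2% of all listed genes), with a median of their medians of 5.90 RPM. Dnajb11, the J protein of BiP, was at 9.93 RPM (0 to 1058 RPM). Of the 8 mitochondrial members, 6 had a median of at least 10 RPM (75%, against the same 38.2%).

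The Cct subunits had medians close to each other. Their medians were 383 RPM for Cct5, 373 for Cct7, 364 for Cct6a, 244 for Cct8, 240 for Cct3, 207 for Cct4 and 204 for Cct2. The medians lay within the spread between cells, in which the lower and upper quartiles of Cct5 were 71.0 and 627 RPM. The remaining subunit of the ring, Tcp1 (Cct1), falls outside the name pattern and had a median of 57.8 RPM (0 to 303 RPM). Cct5 was the highest of the 7 in 17 cells and Cct6a in 15.

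Completeness of the complexes was counted cell by cell, with exact Clopper-Pearson intervals at 95% that hold counting error alone. All 12 listed 20S subunits had at least 1 read in 43 of 49 cells (87.8%, interval 75.2% to 95.4%), and all 7 Cct subunits in 47 cells (95.9%, 86.0% to 99.5%). A single read is weak evidence, since the microglial gene C1qb had at least 1 read in 38 cells and 10 RPM or more in 11 (22.4%). With 10 RPM or more required of every subunit, 22 cells (44.9%, 30.7% to 59.8%) held the complete 20S set and 29 cells (59.2%, 44.2% to 73.0%) the complete Cct set. A set lacking at most 1 subunit at that limit was found in 33 cells for the 20S core and in 35 for Cct.

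Detection followed depth. Between 58 and 98 of the 99 members had a read in a cell, with a median of 88, and the number followed the reads per cell (rho 0.906). After each of the 44 deeper cells was thinned to 358412 reads and the 5 shallower ones were left out, between 59 and 97 members were detected, with a median of 78, and the rho with the original depth was 0.623. In thinned cells, the median member was detected in 40 of 44 cells and the median listed gene in 27. The values by group were 43 cells for Cct, 42 for proteasome, 40 for heat shock and 31 for Dnaj genes.

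The summed level of each group varied over the cells. The proteasome sum ranged from 1122 to 15531 RPM with a median of 10209 RPM, and the pool medians lay between 8359 RPM in pool 5 and 11384 RPM in pool 4. The heat shock sum ranged from 613 to 5218 RPM (median 3402), the Dnaj sum from 480 to 5600 RPM (median 2671) and the Cct sum from 319 to 6473 RPM (median 2279). For the heat shock sum, the pool medians lay between 2592 RPM in pool 5 and 4163 RPM in pool 3. The lowest proteasome sum was that of cell IL01 of pool 3, in which hemoglobin took 68.8% of the reads, and relative to the listed genes other than hemoglobin and mitochondrially encoded genes it was 4022 RPM. The next lowest cells were IL09 of pool 1 with 3671 RPM and IL09 of pool 5 with 3749 RPM, with hemoglobin shares of 0.0384% and 0.468%.

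**Figure D5:**
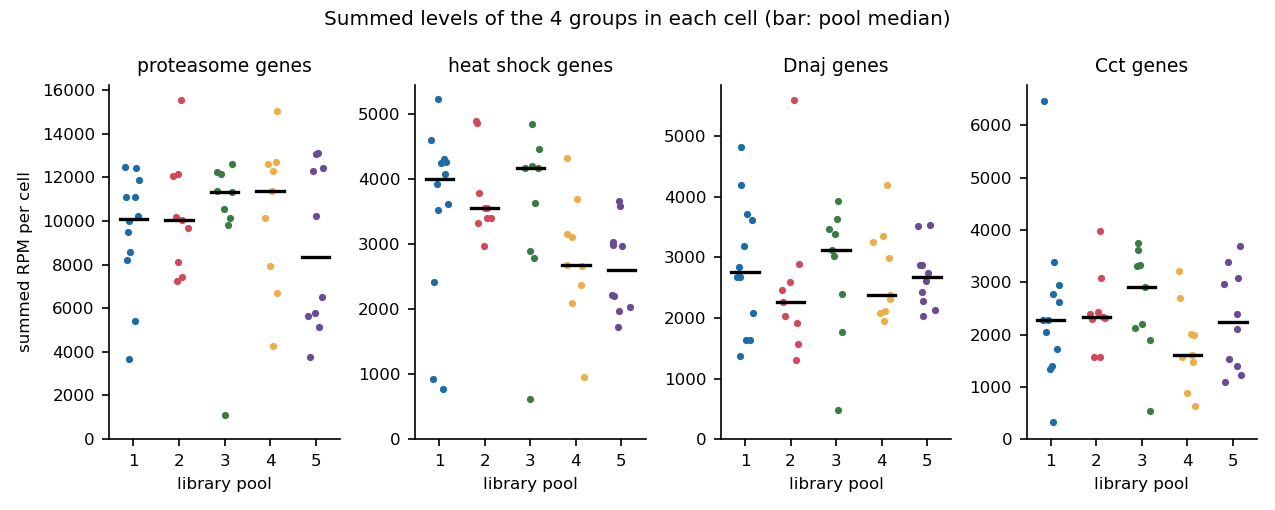
Summed RPM of the proteasome, heat shock, Dnaj and Cct groups in each cell (points), by library pool, with the pool median as a bar. The pools overlap for every group, the lowest proteasome cell (1122 RPM) is in pool 3, and the highest Cct cell (6473 RPM) is the pool 1 cell with the Cct4 peak.

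Cells with more proteasome transcripts tended to hold more Cct transcripts. Spearman's rho of the summed levels was 0.521 over the 49 cells and was above 0 in 5 of 5 pools (0.294, 0.300, 0.600, 0.400 and 0.855 in pools 1 to 5). Without pool 5 it was 0.379, and relative to listed genes without hemoglobin and mitochondrially encoded genes it was 0.439. The other relations between groups were weaker in the deposited RPM. They were 0.439 between heat shock and Dnaj, 0.402 between Dnaj and Cct and 0.345 between proteasome and Dnaj. They were 0.295 between heat shock and Cct and 0.140 between proteasome and heat shock. Heat shock with Dnaj and Dnaj with Cct were also above 0 in 5 of 5 pools. The points share library pools, differ in depth and are relative to a common total, so these values are descriptions. The heat shock sum went with reads per cell at a rho of 0.567 (0.432 in thinned reads), where the proteasome sum did at 0.117 (0.212), the Dnaj sum at 0.323 (0.196) and the Cct sum at 0.199 (0.243). The heat shock sum had a rho of −0.50 with the hemoglobin share, which was 0.0167 in pool 2 and −0.03 in pool 5. The Dnaj sum had a rho of 0.511 with the neuron markers, which was 0.776 in pool 1 but −0.07 in pool 4 and 0.0424 in pool 5, so neither relation held within every pool. With the neuron markers, the proteasome sum had a rho of 0.311 and the Cct sum of 0.402. Both were above 0 in 5 of 5 pools, the lowest being 0.05 for proteasome in pool 4 and 0.0667 for Cct in pool 2. The heat shock sum had a rho of 0.321 with these markers, above 0 in 4 of 5 pools. The part of depth, of the neuron marker level and of RNA from other cells in these relations was not tested.

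Subunits of a complex varied together loosely, and the values are low and given as a description. The median rho over pairs of genes was 0.216 for the 12 subunits of the 20S core, of whose pairs 97.0% were above 0, 0.198 for Cct, 0.173 for the 19S particle, 0.119 for Dnaj and 0.101 for heat shock genes. It was 0.0880 for all listed genes, of whose pairs 70.5% were above 0. It was 0.108 for listed genes with a median of at least 100 RPM, of whose pairs 71.4% were above 0. For the 8 members that work in the ER it was 0.233, with 85.7% of pairs above 0, and for the 8 mitochondrial members it was 0.0958. In thinned reads it was 0.238 for the 20S core, 0.189 for the ER members, 0.0624 for the mitochondrial members and 0.0523 for all listed genes. The summed 20S and 19S levels had a rho of 0.436, which was 0.112 in pool 1 and −0.10 in pool 3. The summed alpha and beta levels had a rho of 0.316, which was −0.23 in pool 1, and both relations were above 0 in 4 of 5 pools.

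Of 35 further genes of the same pathways that fall outside the name pattern, 31 are listed. Among these 31, 25 had a median of at least 10 RPM, 13 of at least 100 RPM and 8 a read in every cell. Over all listed genes, the shares were 38.2%, 13.7% and 8.10%. Shfm1, which encodes the small lid subunit Sem1, had a median of 618 RPM (51.0 to 3369 RPM), and Pomp, the maturation factor of the 20S core, of 510 RPM (5.83 to 3178 RPM), above that of all assembly chaperones within the pattern. The 19S partners Uchl5, a deubiquitinase, and Adrm1, a ubiquitin receptor, had medians of 69.0 and 33.97 RPM. Nfe2l1, the factor that raises proteasome genes when the proteasome is blocked, had a median of 33.02 RPM, and Hsf2, a heat shock factor, of 3.16 RPM. Hsf1 is not analysed here.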

How the data were processed

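Single FT-labelled neurons of the P7 cortex of WT CD1 mice were collected by patch pipette. Per the labels and the study's methods, libraries came from SMART-Seq chemistry primed at 3′ ends, finished with Nextera XT, without molecular identifiers. The authors aligned reads with STAR to mm10 (GRCm38), counted them with HTSeq and deposited RPM that were not log transformed. Versions and annotation are not given in the sources used here. The design assumed RPM. Every value was divided by what 1 read is worth in its cell, which gave whole reads, within a tolerance of 0.01, for 100% of the values. Tested on simulated data, 441980 of 441980 values for 9020 genes in 49 cells were recovered by this step. Depth ranged from 209850 to 35342325 reads per cell. Because cells of 1 condition are not replicates, medians, ranges, exact Clopper-Pearson intervals at 95% (counting error only) and Spearman's rho were given with no p.

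The members and lists were chosen with earlier results of these data known. Genes named were all 20S and Cct subunits, the 5 members of highest median among the proteasome base, lid, activators with the inhibitor and assembly chaperones, the heat shock genes and the Dnaj genes, the 10 members with the largest ratio of the 90th percentile to the median, and genes fixed by role, of which 1 outside the name pattern is not reported here. The cells and single-cell peaks named, and the other members of each group, were chosen after their values were seen. Detection limits were 1 read, 10 RPM and 100 RPM. Transcript lengths, positions and shared 3′ ends (the last 500 bases, matches of at least 100 bases at 98% identity, BLAST 2.17.0) came from GENCODE M21, and promoters from RefSeq. Alternatives were other limits, thinning to 358412 reads, edgeR's TMM (edgeR 4.0.16, R 4.3.3) on the recovered reads, reads without hemoglobin and mitochondrially encoded genes, pseudocounts of 0.1, 1 and 10, a shorter motif, and leaving out each library pool. Other tools were scipy 1.17.1, numpy 2.4.6, pandas 2.3.3 and matplotlib 3.10.9 in Python 3.11.15.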

Additional observations from a re-analysis of the deposited data

How the results depend on the processing

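The group sums stayed within the spread between cells under each normalization, thinning and pool left out. The median proteasome sum lay between 8667 RPM (TMM) and 11182 RPM (without hemoglobin and mitochondrially encoded reads). Values that rest on a limit moved with it. With a limit of 1 RPM for the median, 93.2% of proteasome and 76.7% of Dnaj members passed, against 66.2% of all listed genes. With 100 RPM, 59.1% of proteasome, 38.9% of heat shock and 13.3% of Dnaj members passed, against 13.7% of all listed genes. The complete 20S set was found in 51.0% of cells at 10 reads and in 44.9% at 10 RPM, and the complete Cct set in 57.1% and in 59.2%. At the limit of 1 read, the complete 20S set was found in 87.8% of all cells and in 77.3% of the thinned cells. The complete Cct set was found in 95.9% and 84.1% of these at the same limit. The rho of proteasome and Cct sums was 0.681 in thinned reads and 0.379 to 0.594 when each library pool was left out. The rho of the proteasome sum and depth was 0.212 in thinned reads and 0.0477 to 0.231 when pools were left out. Leaving out the cell with most hemoglobin reads, an alternative chosen after seeing the data, gave 0.492 and 0.0824 for these. The motif GAANNTTC was found in 10 of 81 windows (12.3%) against 9.04% of all genes with a window. In total 90 of 106 alternative values stayed within the bound set for their result. The bound was the standard deviation between cells for sums and the counting interval for shares. For each rho it was the standard deviation of the values with a pool left out, which are among the alternatives themselves. For the motif count it was a fixed ratio. No paired analysis was possible because there is only 1 group. The share of cells with inducible Hsp70 was not run, since Hspa1a and Hspa1b are not analysed here, nor was the count of J proteins with the HPD motif, for which no protein sequences were used here. Depth limits detection of low members: in the shallowest cell a level under 4.77 RPM is less than 1 read.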

Other observations

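Partners of the chaperones outside the name pattern were present in these neurons too. Among co-chaperones of Hsp90, Fkbp4 had a median of 202 RPM (0 to 711 RPM) and Cdc37, which brings kinases to Hsp90, of 148 RPM (0 to 963 RPM). Stip1, which joins Hsp70 to Hsp90, had a median of 92.2 RPM, Ptges3 (p23) of 76.9 RPM and the ATPase activator Ahsa1 of 35.7 RPM. St13, another protein that binds Hsp70, had a median of 227 RPM and was read in every cell, as was Ptges3. Sgta and Sgtb, which bind Hsp70 and Hsp90, had medians of 236 and 1.03 RPM, and Chordc1, which binds Hsp90, of 3.97 RPM. Of the Bag genes listed, Bag1 and Bag6 had medians of 149 and 76.4 RPM, while Bag5, Bag4 and Bag2 had 4.20, 2.10 and 0.486 RPM. Prefoldin hands unfolded actin and tubulin to the Cct ring. Its subunits Pfdn1, Pfdn5, Pfdn2, Pfdn4, Vbp1 and Pfdn6 had medians of 309, 208, 184, 120, 94.8 and 19.1 RPM.

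Ubb, which encodes ubiquitin, had a median of 237 RPM (18.8 to 732 RPM) and was at 10 RPM or more in 49 of 49 cells. Vcp, the segregase that extracts ubiquitin-tagged proteins, had a median of 11.8 RPM (0 to 449 RPM), and Rad23b, which carries them to the proteasome, of 14.1 RPM (0 to 517 RPM).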
